A study of Drosophila melanogaster with 136 samples.

Results

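The mRNA of Drosophila melanogaster embryos carrying the B allele of Dora (dora[B]) was measured at 8-12 h of development, beside the wild-type embryos collected as controls for that allele (WT_B). The members were chosen by their labels (allele, age and RNA type) and are 4 libraries, 2 of dora[B] and 2 of WT_B, out of 136 samples in the series. The series compares dora mutant, lncRNA mutant and wild-type embryos through development, and S2 cells, a Drosophila cell line, by sequencing of mRNA and small RNA. Libraries of WT_B and dora[B] at 12-16 h and 16-20 h, of the A allele (dora[A]) with its own controls (WT_A) at 8-12 h, and of the CR43432 mutant with its own wild-type course from 0-2 h are used here to read the members' values. The labels name no treatment for any of these groups. The sources used here do not state the lesion of dora[B], the genotype of the mothers, how embryos were selected, their sex or how many were pooled. At least 2 fly lines served as replicates of a dataset according to the series design, so a group may be 2 lines of 1 genotype. The p-values measure the spread between these libraries only. Reads had been counted per gene after poly(A) selection, with 23581733 and 13436783 counts in genes in the WT_B libraries and 24670208 and 13458214 in the dora[B] libraries.

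Dora is the fly counterpart of ZSWIM8, which recognises the target of a cullin-type ubiquitin ligase. The ligase marks Argonaute bound to certain transcripts for destruction, and the miRNA held by that Argonaute is then degraded (target-directed miRNA degradation, TDMD). A fly egg is loaded by the mother with mRNAs that carry the first hours of development. Some of these are destroyed by factors that act from egg activation on, and others only after the embryo has begun to transcribe its own genome. Embryos of 8-12 h are normally past this handover and are building muscle, nerve cord, epidermis and gut.

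In dora[B] embryos of 8-12 h, one class of maternal mRNAs, those that wild-type embryos clear after 2-4 h, stood far above its wild-type level, and few genes were lower. Of 11424 genes tested, 785 were called (6.87%), 763 of them higher (6.68%) and 22 lower (0.193%), at an adjusted p under 0.05 by edgeR's quasi-likelihood test with Benjamini-Hochberg adjustment over all genes. The rise was at least 2-fold for 720 genes, at least 4-fold for 312 and at least 10-fold for 122. The fall was at least 2-fold for 19 genes and at least 10-fold for 6. The 763 higher genes had a median log2 fold change of 1.77, beside -0.03 over all genes tested. Without regard to the test, both dora[B] libraries lay above both WT_B libraries for 24.9% of genes and below both for 35.9%. These shares use counts scaled to library totals alone. The fit also used TMM scaling, with factors of 1.07 and 1.03 for WT_B and 0.926 and 0.974 for dora[B], which moves dora[B] up against WT_B. With 2 libraries a group the calls lean on the spread of the whole dora[B] time course, and leaving out WT_B replicate 1 left 47 calls, WT_B replicate 2 223, dora[B] replicate 1 339 and dora[B] replicate 2 332. DESeq2, with its own size factors, called 859 higher and 561 lower genes. A fit of the 4 libraries alone called 2011 higher and 1000 lower genes, so the small number of lower genes depends on the fit.

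Most of the higher mRNAs were ones that wild-type embryos lose between 2-4 h and 8-12 h. Over that interval, 2333 of the 11424 tested genes fell at least 2-fold in the wild-type course of the CR43432 set. Those libraries took no part in the comparison. Among the 763 higher genes, 661 (86.6%) belonged to the genes that fell. Of the genes that fell, 28.3% were higher, beside 6.68% of all genes tested. At 0-2 h, before most transcription by the embryo, 741 of the 763 (97.1%, beside 57.3% of all genes tested) had at least 5 CPM (a gene's counts scaled to the same total of counts in genes for every library). Of the 3111 tested genes that rose at least 2-fold over the same interval, 7 were higher in dora[B] (0.225%). Another 16 were lower (0.514%, beside 0.193% of all genes tested). The summed level of the genes that fell was 23.7% and 24.4% of all counts in the 2 dora[B] libraries and 13.3% and 13.4% in the 2 WT_B libraries. Genes that rose made up 20.6% and 20.4% in dora[B] and 29.7% and 29.3% in WT_B. In pools of whole embryos, more of an mRNA in each embryo and more embryos or eggs that still hold it cannot be told apart.

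**Figure D1:**
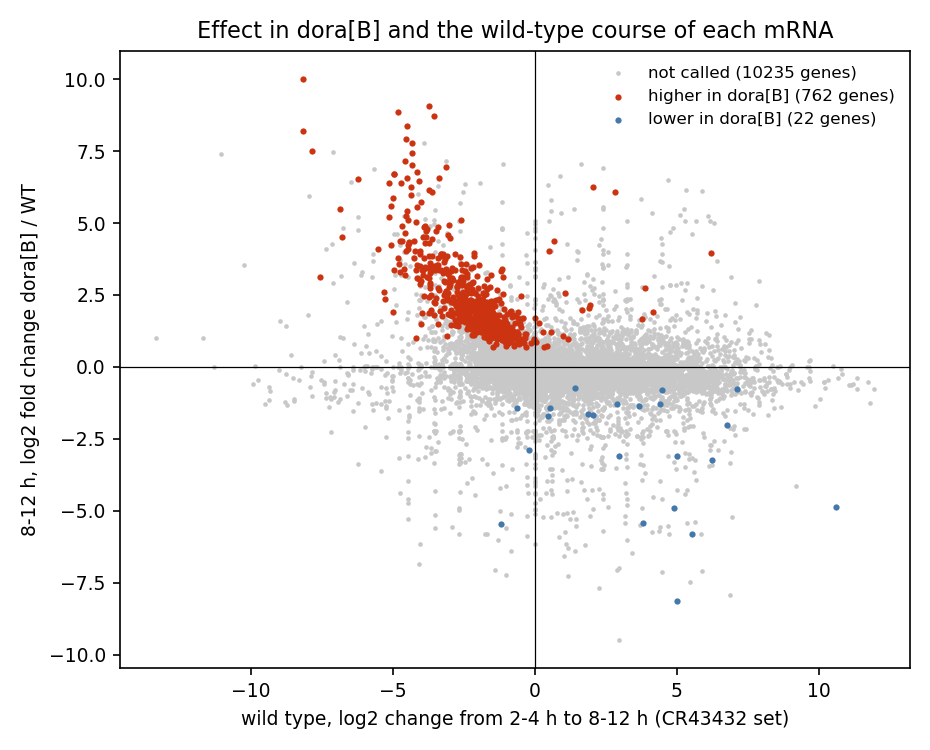
Each point is 1 of 11019 genes, with the wild-type log2 change from 2-4 h to 8-12 h in the CR43432 set on the x axis and the log2 fold change of dora[B] over WT_B at 8-12 h on the y axis. Of the 762 higher genes plotted (red), 742 (97.4%) lie left of 0, where wild-type levels fall with age, as do 46% of all genes plotted and 3 of the 22 lower genes (blue).

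The effect was not spread over all maternal mRNAs. Maternal mRNAs were taken as genes with a 0-2 h wild-type mean of at least 10 CPM that fell at least 4-fold by 8-12 h, and were split by whether they had already fallen at least 2-fold by 2-4 h. Each such rise or fall in the wild-type course had to pass edgeR's quasi-likelihood test at an adjusted p under 0.05. Among those cleared only after 2-4 h, 291 of 512 tested genes were higher (56.8%), none was lower (0 at an unadjusted p under 0.05 by edgeR, 0 by DESeq2), and the median log2 fold change was 1.95. Among those already falling by 2-4 h, 14 of 446 were higher (3.14%), below the 6.68% over all genes, and the median was -0.08. Of 3850 genes with at least 10 CPM at 0-2 h that kept most of that level or more at 8-12 h in wild type, 170 were higher (4.42%) and 2 lower, with a median of 0.02. These classes were defined after the values had been seen, but from wild-type libraries outside the comparison.

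Set against their 0-2 h wild-type mean, the 518 genes cleared after 2-4 h stood at a median of 45.3% and 48.2% in the 2 dora[B] libraries. In WT_B they stood at 14.1% and 12.0%. The dora[B] values lay far outside the range of the 6 wild-type libraries of this age, 12.0% to 18.4%, and below the 78.4% and 95.6% of wild type at 2-4 h. The CR43432 wild type, which is part of that range and gave the 2-4 h values, also defined the class. Its values were thus partly set by that choice, and those of WT_B and WT_A were not. The 452 genes already falling by 2-4 h stood at 9.69% and 10.6% in dora[B] and at 13% and 10.4% in WT_B, so that the groups overlapped. Short-lived mRNAs that the embryo itself makes early, under 1 CPM at 0-2 h and lower at 8-12 h than at 2-4 h, gave 0 higher and 0 lower of 91 tested by edgeR, with a median log2 fold change of -0.12. At an unadjusted p under 0.05, 2 of these were higher and 0 lower, and DESeq2 called 1 higher.

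**Figure D2:**
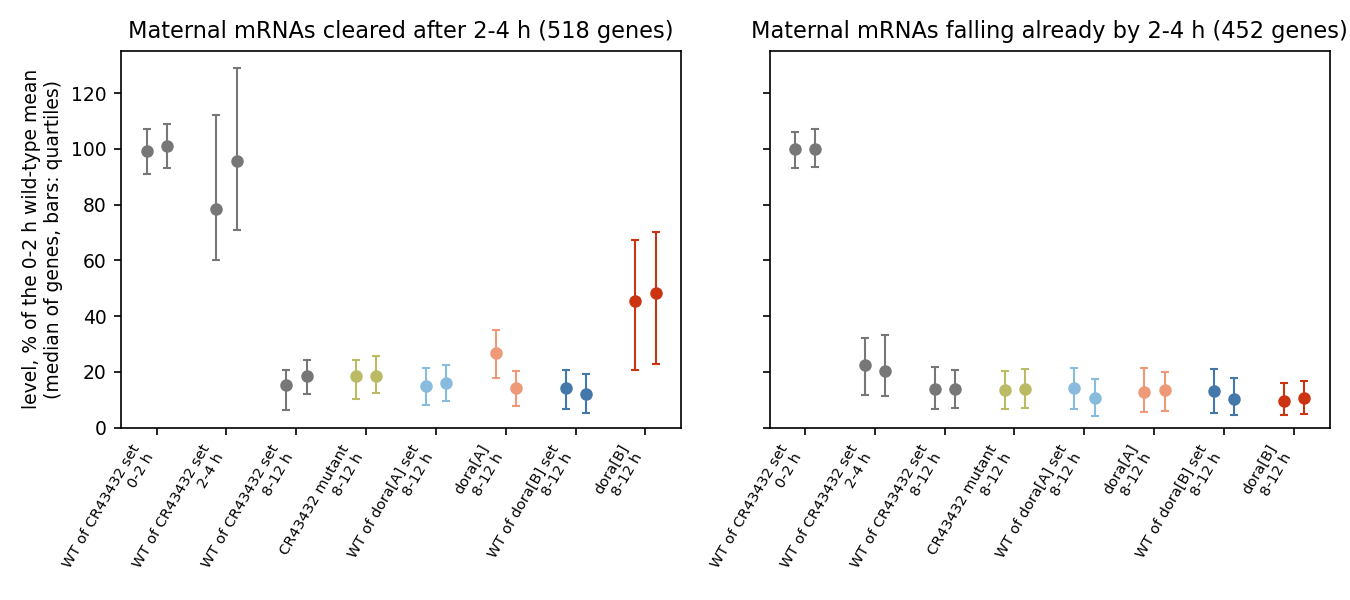
The median level of maternal mRNAs in each library, in percent of the 0-2 h wild-type mean, with bars for the quartiles over genes; the left panel shows the 518 genes cleared after 2-4 h and the right panel the 452 genes already falling by 2-4 h. On the left both dora[B] libraries (45.3% and 48.2%) stand above every other library of 8-12 h, and on the right they lie among them.

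A list of 20 tested maternal and germ plasm mRNAs showed the same split. Its members of these classes are already counted above, so the list adds no separate support. Of its 7 members cleared after 2-4 h in wild type 6 were higher, of its 8 members falling by 2-4 h 1 was higher, and of the other 5 members 1 was higher. In all 8 of 20 were higher (40%, beside 6.68% over all genes), with a median log2 fold change of 1.31. vas, which encodes the germline helicase Vasa, had 8.27 and 5.81 CPM in WT_B and 4.91 and 7.36 CPM in dora[B], against 233 and 271 CPM at 0-2 h. The groups overlapped, as they did for pgc, a repressor of transcription in pole cells, with 0.424 and 1.12 CPM in WT_B and 0.324 and 1.12 CPM in dora[B]. osk, which directs the assembly of the germ plasm, was higher with 12.0 and 14.3 CPM in dora[B] against 1.48 and 1.86 CPM in WT_B (log2 fold change 3.11, edgeR adjusted p = 0.0257), and at 0-2 h it had 1503 and 1281 CPM in wild type.

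Regulators of the maternal mRNAs themselves were among the higher genes. smg, which encodes Smaug, an RNA-binding protein that recruits the deadenylation machinery to maternal mRNAs, had 123 and 113 CPM in WT_B and 2469 and 2630 CPM in dora[B]. Both dora[B] libraries were above both controls, and the log2 fold change was 4.58 (SE 0.39, edgeR adjusted p = 0.000142). wisp, the cytoplasmic poly(A) polymerase that lengthens tails in the egg, had 10.3 and 3.80 CPM in WT_B and 523 and 556 CPM in dora[B] (log2 fold change 6.39, SE 0.86, edgeR adjusted p = 0.00352). Trf4-2, a non-canonical poly(A) polymerase, rose from 0.424 and 0.670 CPM to 58.7 and 47.0 CPM. Marf1, a regulator of maternal transcripts in the oocyte, rose from 3.18 and 3.42 CPM to 118 and 152 CPM (log2 fold change 5.50, SE 0.61, edgeR adjusted p = 0.000517). In each of these 4 genes the 2 dora[B] libraries were close to each other.

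Some mRNAs with roles in the body axes of the egg were higher, and others were not called. bcd, the anterior morphogen of the egg, had 2.33 and 0.298 CPM in WT_B and 119 and 118 CPM in dora[B] (log2 fold change 6.55, SE 0.97, edgeR adjusted p = 0.00492). The dora[B] level was 76.9% and 76.4% of the 0-2 h wild-type mean, and the WT_B level 1.51% and 0.192%. swa, which encodes Swallow, needed to place bcd mRNA, rose from 0.848 and 0.298 CPM to 55.7 and 90.1 CPM. tor, the receptor kinase that patterns both ends of the embryo, rose from 1.78 and 1.04 CPM to 109 and 111 CPM (log2 fold change 6.39, SE 0.56, edgeR adjusted p = 0.000142). grk, the oocyte's TGF-alpha-like signal, was a weak message that rose from 1.48 and 1.94 CPM to 12.3 and 13.2 CPM. exu, which acts with swa in placing bcd mRNA, had 0.763 and 0.298 CPM in WT_B and 1.09 and 2.30 CPM in dora[B] (edgeR adjusted p = 0.21). stau, another factor of mRNA localisation, had 550 and 542 CPM in WT_B and 630 and 602 CPM in dora[B] (edgeR adjusted p = 0.511).

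Some cell cycle and cellularisation messages of the early embryo were among the higher genes. plu, a regulator of the first nuclear divisions, had 0.254 and 0 CPM in WT_B, which were 6 and 0 counts, and 36.4 and 26.5 CPM in dora[B] (log2 fold change 7.78, SE 1.02, edgeR adjusted p = 0.00132). png and gnu, whose products form a kinase complex with Plu, were not called: png had 1.23 and 1.04 CPM in WT_B and 0.243 and 0.669 CPM in dora[B] (edgeR adjusted p = 0.651), and gnu had 1.61 and 1.12 CPM and 2.19 and 0.0743 CPM (edgeR adjusted p = 1). twe, the meiotic Cdc25 phosphatase, rose from 4.11 and 1.04 CPM to 159 and 161 CPM. CycB, the mitotic cyclin B, is also made by dividing cells of the embryo and had 465 and 427 CPM in WT_B and 2424 and 2271 CPM in dora[B] (log2 fold change 2.54, SE 0.42, edgeR adjusted p = 0.00527). slam, which drives membrane growth as the embryo forms cells, rose from 1.15 and 0.447 CPM to 130 and 144 CPM, far below the 1655 and 2510 CPM of wild type at 2-4 h. BigH1, the linker histone of the early embryo, rose from 1.27 and 0.968 CPM to 79.7 and 113 CPM. faf, a deubiquitinase of the egg, rose less, from 120 and 89.1 CPM to 491 and 533 CPM (log2 fold change 2.44, SE 0.30, edgeR adjusted p = 0.00072).

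The named genes included 4 of the piRNA pathway, which silences transposons in the germ line with small RNAs. AGO3 and tej among them were added after their values were seen, and no list of the pathway was made. AGO3, a PIWI-clade Argonaute, had 3.44 and 3.57 CPM in WT_B and 199 and 202 CPM in dora[B] (log2 fold change 5.98, SE 0.68, edgeR adjusted p = 0.000799). tej, a Tudor-domain protein of the same pathway, rose from 2.93 and 3.28 CPM to 79.9 and 85.3 CPM. BoYb, another Tudor-domain protein, rose from 0.891 and 0.0744 CPM to 51.4 and 41.0 CPM. moon, a TFIIA-like factor for transcription of piRNA clusters, rose from 0.170 and 0.149 CPM to 13.7 and 18.1 CPM. The 2 other PIWI proteins gave different values: piwi rose from 4.88 and 2.98 CPM to 31.3 and 34.3 CPM, and aub had 22.4 and 27.6 CPM in WT_B and 68.4 and 57.7 CPM in dora[B], which did not pass the test (edgeR adjusted p = 0.1).

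The 15 named genes with the highest fold changes otherwise included CG5568, CG7384, CG7730, CG44005 and CG31517, to which no role is assigned here. Of the 15, 14 had a 0-2 h mean of at least 10 CPM, and these stood at a median of 49.8% and 46.3% of that mean in dora[B] and 0.547% and 0.188% in WT_B. The exception was inaF-D, of the inaF gene family, with 0 counts in both WT_B libraries and 186 and 69 counts (7.54 and 5.13 CPM) in dora[B]. Against the level of 3 counts over both WT_B libraries it was at least 82.5-fold higher. The smallest p of the comparison belonged to Dhit, a regulator of G-protein signalling, with 5.09 and 5.81 CPM in WT_B and 69.1 and 69.2 CPM in dora[B] (log2 fold change 3.81, SE 0.23, edgeR adjusted p = 2.9e-05). The genes tor, AGO3, Marf1, tej, grk, faf, smg, ftz-f1, Cam and Dhit were added to the named genes after their values were seen; they are named in the text beside those that the rule gave.

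**Figure D3:**
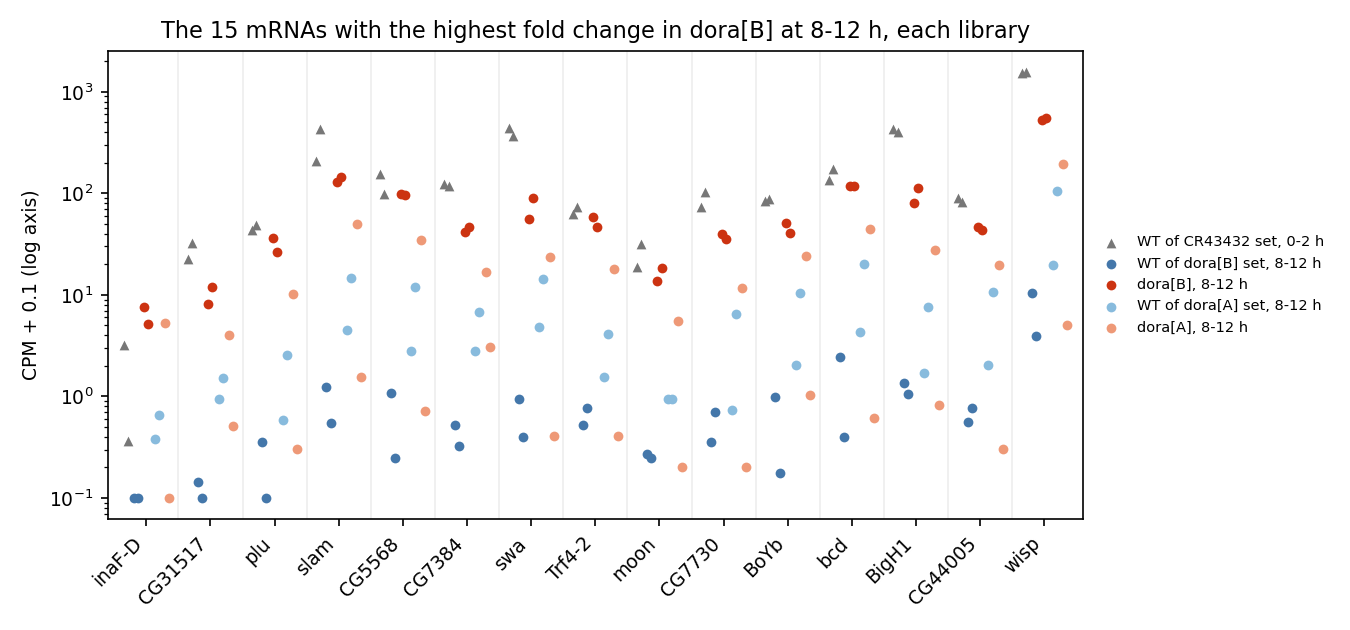
CPM plus 0.1 on a log axis for the 15 called genes with the highest fold changes; triangles are the 0-2 h wild-type libraries and circles the 8-12 h libraries of WT_B, dora[B], WT_A and dora[A]. Both dora[B] libraries (red) sit above both WT_B libraries in every gene, as the choice of these genes requires. The 2 dora[A] libraries differ from each other. For the 14 genes with a 0-2 h mean of at least 10 CPM, their medians were 18.6% (replicate 1) and 0.428% (replicate 2) of that mean. In WT_A the medians were 2.16% and 5.72%.

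Among other gene groups the glutathione transferases, which conjugate glutathione to toxic compounds, had 9 of 33 tested members higher (27.3%, beside 6.68% of all genes) and none lower, with a median log2 fold change of 0.09. GstT1 rose from 1.02 and 0.670 CPM to 20.0 and 26.2 CPM, GstE1 from 9.92 and 6.996 CPM to 57.3 and 52.6 CPM, and GstS1 from 34.1 and 32.6 CPM to 118 and 126 CPM. These 3 mRNAs had 39.0 and 39.1 CPM, 55.4 and 79.4 CPM, and 137 and 128 CPM at 0-2 h in wild type, so they too were present at 0-2 h. Near-identical paralogs in this family can share reads, so the values of single members are uncertain. Of 65 cytochrome P450 genes 3 were higher (4.62%), a share below that of all genes, among them Cyp6v1 with 1.61 and 2.38 CPM in WT_B, 36.3 and 31.2 CPM in dora[B] and 187 and 218 CPM at 0-2 h. In the small RNA machinery 3 of 15 were higher (20%, beside 6.68%), with a median log2 fold change of 0.45: Tailor, a uridylyl transferase of precursor miRNAs, pasha, the partner of Drosha, and Ranbp21, a nuclear export factor. Tailor rose from 42.8 and 33.7 CPM to 97.3 and 111 CPM (log2 fold change 1.59, SE 0.32, edgeR adjusted p = 0.0126).

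Other lists had a share of higher genes nearer to the 6.68% over all genes, and their calls are given as single genes. Of 24 cell cycle and replication genes 3 were higher (12.5%): CycB, the replication licensing factor dup and CycD, with a list median of 0.43. Su(H), the transcription factor of the Notch pathway, rose from 48.1 and 43.7 CPM to 110 and 111 CPM as the only call among 20 Notch and Enhancer of split genes (5%), whose median was -0.58. cact, the inhibitor of Dorsal, rose from 148 and 172 CPM to 422 and 457 CPM as the only call among 17 immune response genes (5.88%). Dronc, the initiator caspase, was the only call among 15 apoptosis and p53 target genes (6.67%), with 29.9 and 33.0 CPM in WT_B and 91.8 and 105 CPM in dora[B]. Su(H), cact and Dronc had 101 to 595 CPM in each 0-2 h wild-type library. Of the 36 lists, 23 had no called member in either direction.

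Only 11 of the 3389 tested zygotic genes, defined as under 1 CPM in both 0-2 h wild-type libraries, were higher (0.325%), and 12 were lower; their median log2 fold change was -0.20. Of the 11, named after their values were seen, sordd2 had 9.58 and 8.04 CPM in WT_B and 18.1 and 21.6 CPM in dora[B], and CG31601 had 1.02 and 0.447 CPM and 8.23 and 13.8 CPM. Osi13, of the Osiris family, and dpr21 had 0 counts in WT_B and under 1 CPM in dora[B].

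Among the 22 lower genes, 6 of those with at least 5 CPM in WT_B fell at least 8-fold, and 12 of the 22 (54.5%, beside 29.7% of all genes tested) were zygotic. CG18754 (dm6 3R:23684057-23686537) had 72.8 and 56.4 CPM in WT_B and 1.46 and 0.520 CPM in dora[B] (log2 fold change -5.80, SE 0.63, edgeR adjusted p = 0.000384). CtsK2, a cathepsin-like protease gene by its name (2R:17511513-17513855), had 27.0 and 12.4 CPM in WT_B and 0.851 and 0.223 CPM in dora[B]. lncRNA:CR32658, a long non-coding RNA (X:12091264-12092272), had 11.0 and 8.71 CPM in WT_B and 0.122 and 0.520 CPM in dora[B]. In all 3 the groups were more than 10-fold apart. CG43902 (X:10158434-10195337) had 19.3 and 15.9 CPM in WT_B and 1.99 and 1.34 CPM in dora[B], and CG15169 (2L:18991020-18992409) had 5.56 and 5.88 CPM and 0.0405 and 0.223 CPM. CG15286 (2L:14338240-14340080) had 24.4 and 56.0 CPM in WT_B and 0.203 and 0 CPM in dora[B]. It lies within CG33090 (2L:14334158-14345795), itself lower with 110 and 157 CPM in WT_B and 46.6 and 44.3 CPM in dora[B], and since the strand setting of the counting is not given in the sources used here, reads of this pair cannot be told apart.

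The 6 genes stood low in the other Dora allele as well, although only CtsK2 passed the test there. At 8-12 h the 2 dora[A] libraries had 0.520 and 3.30 CPM of CG18754, beside 127 and 70.1 CPM in WT_A and 270 and 187 CPM in the wild type of the CR43432 set. CtsK2 had 0.780 and 1.85 CPM in dora[A] and 30.4 and 27.5 CPM in WT_A, and was the single gene called in dora[A] (log2 fold change -4.51, SE 0.64, edgeR adjusted p = 0.0214). CG15286 had 0 and 0.103 CPM in dora[A] and 21.9 and 19.3 CPM in WT_A. CG43902 (1.36 and 4.95 CPM), lncRNA:CR32658 (1.17 and 1.03 CPM) and CG15169 (0.195 and 0.103 CPM) were likewise below both WT_A libraries. For 13 of the 22 lower genes (59.1%) both dora[A] libraries lay below all 4 wild-type libraries of WT_A and the CR43432 set, against 5.66% of all genes tested. The CR43432 mutant libraries, another genotype, had 84.8 and 102 CPM of CG15286 and 37.0 and 51.7 CPM of CtsK2, so these were not low there, while CG18754 had 3.91 CPM in 1 library and 101 CPM in the other.

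Other lower genes differed less or were not shared. sns, which encodes a receptor for the fusion of muscle cells, had 579 and 636 CPM in WT_B and 337 and 303 CPM in dora[B] (log2 fold change -0.78, SE 0.19, edgeR adjusted p = 0.0337). CrebA, a transcription factor that raises secretory capacity in the salivary gland, had 618 and 634 CPM in WT_B and 356 and 299 CPM in dora[B]. Vang, a planar polarity gene outside the naming rule, had 413 and 391 CPM and 229 and 209 CPM. CG14273 had 36.8 and 65.9 CPM in WT_B and 17.1 and 12.0 CPM in dora[B], but 52.0 and 58.4 CPM in dora[A], 39.7 and 19.4 CPM in WT_A and under 1 CPM in the wild type of the CR43432 set, so its level differed between the wild-type sets.

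**Figure D4:**
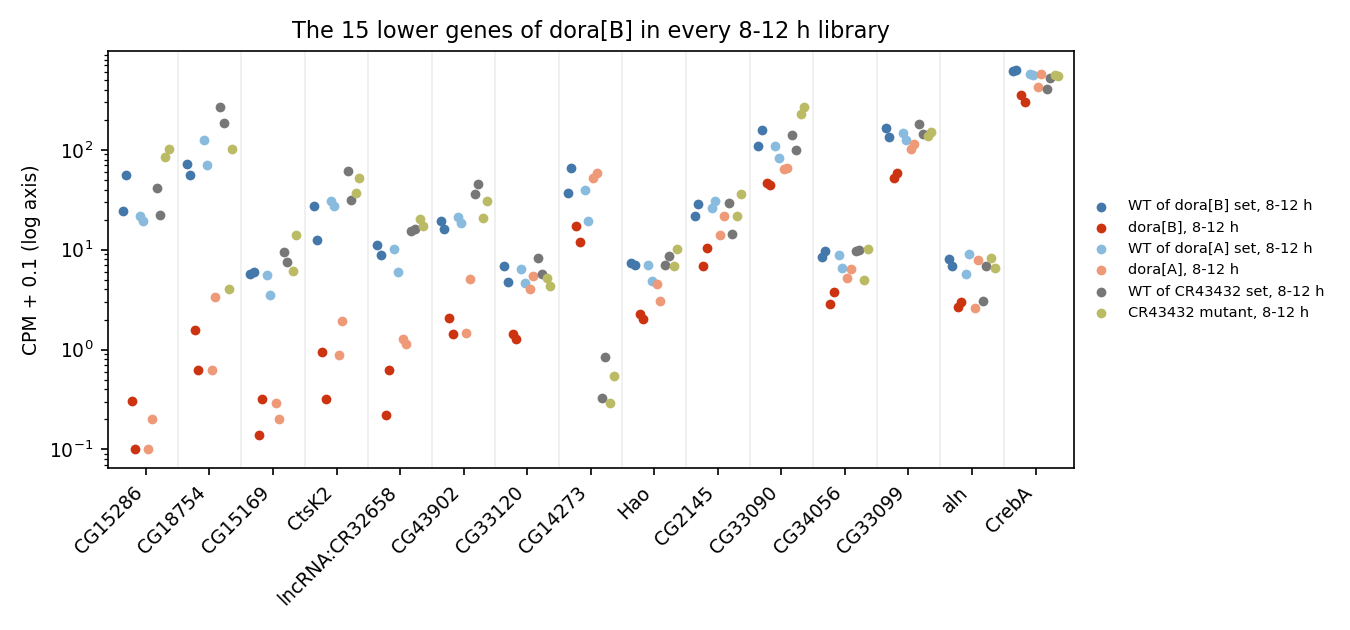
CPM plus 0.1 on a log axis for the 15 named lower genes in all 12 libraries of 8-12 h. For CG15286, CG18754, CG15169, CtsK2, lncRNA:CR32658 and CG43902 the dora[B] and dora[A] libraries lie together below all wild-type libraries.

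Genes of the embryo's own tissues were mostly a little lower, without passing the test of the main fit. Over 16 lists of patterning genes and tissue markers, 1 of 233 tested genes was higher (unc-13) and 2 were lower (sns and CrebA), and the median log2 fold change was -0.42. Both dora[B] libraries lay below both WT_B libraries for 149 of them (63.9%, beside 35.9% of all genes) and above for 21 (9.01%, beside 24.9%). The list medians were -0.51 for 10 Hox genes, -0.62 for 16 neuroblast factors, -0.55 for 10 glial markers and -0.58 for 15 early myogenic factors, but 0.42 for 22 sarcomere genes. Some lists shifted less: -0.19 for 19 dorsal closure genes, -0.14 for 17 hemocyte markers and -0.12 for 23 epidermal cuticle and chitin genes. For 20 neuronal differentiation and synapse genes the median was -0.03. Both dora[B] libraries lay below both WT_B libraries for 25% of these neuronal genes and above for 20%. elav, the marker of nerve cells, had 1763 and 1919 CPM in WT_B and 1086 and 1022 CPM in dora[B] (edgeR adjusted p = 0.109), and hth, a Hox cofactor, had 1472 and 1420 CPM and 942 and 854 CPM (edgeR adjusted p = 0.18). mbc, needed for the fusion of muscle cells, had 633 and 669 CPM in WT_B and 413 and 339 CPM in dora[B] (edgeR adjusted p = 0.108). grh, a transcription factor of the epidermis, had 554 and 651 CPM in WT_B and 352 and 357 CPM in dora[B] (edgeR adjusted p = 0.293). These small shifts depend on the scaling: with libraries scaled on zygotic genes, an alternative added after seeing the data, the median of all genes moved from -0.03 to 0.17, and those of the Hox, neuroblast and glial lists to -0.26, -0.35 and -0.30. The part of the larger maternal share of counts in these values was not tested.

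Dora itself (X:18863950-18884075) had 767 and 851 CPM in WT_B and 528 and 537 CPM in dora[B], with a log2 fold change of -0.46 (SE 0.23) that did not pass the test (edgeR adjusted p = 0.293). Both dora[B] libraries were below both controls, and a fit of the 4 libraries alone gave an edgeR adjusted p of 0.0111, with 0.0877 to 0.871 under the other alternatives. With libraries scaled on zygotic genes the log2 fold change was -0.21. Because the lesion is not given, this level does not check the label. Of 6 transcripts listed as triggers of miRNA degradation, 0 were called by edgeR (2 lower at an unadjusted p under 0.05), and DESeq2 called 1 lower. zfh1, a zinc-finger transcription factor, had 513 and 530 CPM in WT_B and 323 and 302 CPM in dora[B] (log2 fold change -0.59, edgeR adjusted p = 0.0983). Kah had 170 and 195 CPM and 114 and 68.4 CPM, and lncRNA:marge, the transcript of the CR43432 locus, had 242 and 202 CPM and 139 and 127 CPM. AGO1, the Argonaute of miRNAs, had 1300 and 1445 CPM in WT_B and 1243 and 1345 CPM in dora[B], and these groups overlapped.

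Of 17 sex determination and dosage compensation genes, 0 were called by edgeR (4 higher and 1 lower at an unadjusted p under 0.05), and DESeq2 called 2 lower. lncRNA:roX1, a male-specific RNA of the dosage compensation complex, had 2084 and 1899 CPM in WT_B and 1347 and 1098 CPM in dora[B] (edgeR adjusted p = 0.253). Higher calls made up 5.43% to 7.79% of tested genes on the chromosome arms 2L, 2R, 3L, 3R, 4 and X.

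Maternal mRNAs varied between the other libraries of 8-12 h too. Of the 763 higher genes, 740 (97.0%) had both dora[B] libraries above all 6 wild-type libraries of this age. The 6 include the 2 WT_B libraries that the calls rest on, so this share is partly set by the choice of genes. Over all genes tested, both dora[B] libraries lay above both WT_B libraries for 24.9%. The share above all 6 was not computed over all genes. The wild-type libraries themselves differed widely in some of the higher mRNAs. smg ranged from 100 to 556 CPM over the 6 wild-type libraries and bcd from 0.298 to 24.6 CPM, with the higher values in WT_A replicate 2 and replicate 2 of the CR43432 wild type. The lower of the 2 dora[B] libraries was still 4.44 times the highest wild-type library for smg, 4.81 times for bcd, 4.95 times for wisp and 10.7 times for BigH1. For ftz-f1 that ratio was 1.66. What sets the wild-type spread is not given in the sources used here, and its part in the result was not tested.

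In a joint fit of both alleles, dora[A] against WT_A at 8-12 h gave 0 higher and 1 lower gene of 11563 tested (0.00865% called). At an unadjusted p under 0.05 it gave 113 higher and 71 lower, and DESeq2 called 0 higher and 7 lower. The 2 dora[A] libraries stood apart from each other: maternal mRNAs cleared after 2-4 h were at a median of 26.9% of their 0-2 h level in replicate 1 and 14.1% in replicate 2, with WT_A at 15.1% and 16.2%. bcd had 44.5 CPM in replicate 1 and 0.515 CPM in replicate 2, and smg had 990 and 113 CPM. The 763 genes higher in dora[B] had a median log2 fold change of 0.29 in dora[A], beside 0.04 over all genes tested. Replicate 1 of dora[A] was above both WT_A libraries for 676 of them (88.6%, beside 34.6% of all genes tested) and below both for 18 (2.36%, beside 32.7%). Replicate 2 was above both for 135 (17.7%, beside 34.2%) and below both for 397 (52%, beside 28.2%). The test of the difference between the alleles called 47 genes (0.406%), 46 with a more positive effect in dora[B] (0.398%), among them Dhit with a difference of 3.40 (SE 0.35, edgeR adjusted p = 0.000201) and faf with 1.96. For bcd the difference of 5.66 did not pass (edgeR adjusted p = 0.424). Leaving out 1 library of 8-12 h lowered the count of 47, except for dora[A] replicate 1, without which it rose.

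Many of these mRNAs were still higher in dora[B] at later ages, but over the class the effect was smaller. The median log2 fold change of maternal mRNAs cleared after 2-4 h was 1.95 at 8-12 h, 1.41 at 12-16 h and 0.96 at 16-20 h. Over all genes tested it was -0.03, -0.43 and -0.48. bcd had 89.3 and 163 CPM at 12-16 h and 195 and 80.4 CPM at 16-20 h, and smg had 1996 and 3512 CPM and 3925 and 1738 CPM. In WT_B neither gene exceeded 1.56 and 112 CPM at these ages. The log2 fold changes of smg were 4.58 at 8-12 h, 4.58 at 12-16 h and 4.50 at 16-20 h, and neither later effect differed from the first (edgeR adjusted p = 1 and 0.992). The level of maternal mRNAs cleared after 2-4 h was 30.1% and 52.7% of the 0-2 h mean in the dora[B] libraries of 12-16 h and 39.6% and 23.6% in those of 16-20 h, so the later libraries differed more from each other than those of 8-12 h. In all, 1296 genes were higher (11.3%) and 1447 lower (12.7%) at 12-16 h (24% called), and 1160 (10.2%) and 622 (5.44%) at 16-20 h (15.6% called). Of the 763 genes higher at 8-12 h, 510 were called higher at 12-16 h and 398 at 16-20 h.

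A few mRNAs had an effect that differed by age. ftz-f1, a nuclear receptor that is maternal in the egg and made again in late embryos, had 22.4 and 14.9 CPM in WT_B and 169 and 188 CPM in dora[B] at 8-12 h. At 12-16 h it was lower in dora[B], with 963 and 600 CPM in WT_B and 313 and 312 CPM in dora[B], and the difference between the effects was -4.93 (SE 0.37, edgeR adjusted p = 0.000155). Dhit rose in WT_B to 138 and 110 CPM at 12-16 h and had 93.6 and 98.1 CPM in dora[B]. Cam, calmodulin, had 306 and 303 CPM in WT_B and 1273 and 1300 CPM in dora[B] at 8-12 h, and 1204 and 990 CPM and 1633 and 1923 CPM at 12-16 h. In WT_B all 3 mRNAs were more abundant at 12-16 h than at 8-12 h. Over all genes the effect differed between 12-16 h and 8-12 h for 233 genes (2.04%), 30 more positive (0.263%) and 203 more negative (1.78%) later, and between 16-20 h and 8-12 h for 184 (1.61%), 51 more positive (0.446%) and 133 more negative (1.16%). Both counts were lower when any 1 of the 4 libraries of 8-12 h was left out, which leaves 1 library in a group.

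**Figure D5:**
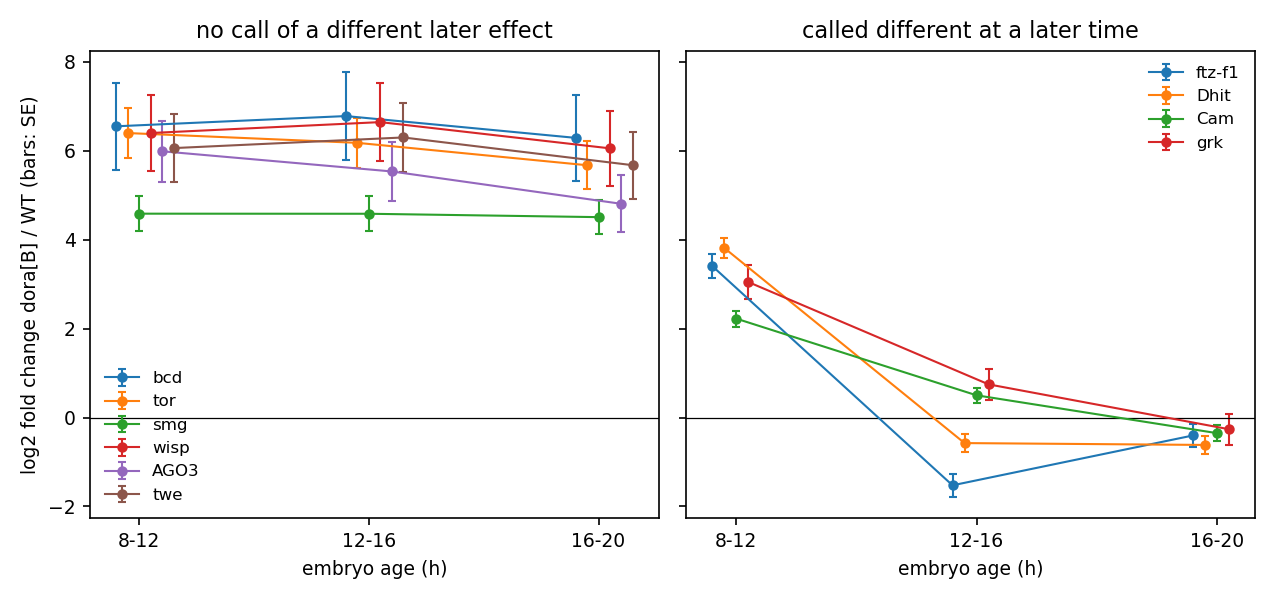
The log2 fold change of dora[B] over WT_B at 8-12 h, 12-16 h and 16-20 h, with bars for the standard error. For the 6 genes on the left (bcd, tor, smg, wisp, AGO3 and twe) no later effect was called different from that at 8-12 h; the 4 genes on the right (ftz-f1, Dhit, Cam and grk) were called different at both later ages.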

How the data were processed

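Poly(A)-selected RNA of embryo pools was sequenced as single-end reads with a directional library kit, per the labels' protocols. Reads were aligned with STAR 2.4 to dm6 and counted with HTSeq, whose version is not given, per the submitters' processing notes; the strand setting of the counting is not given in the sources used here. The authors deposited raw counts per gene, 17477 genes in each table, of which 17226 matched a symbol. Reads assigned to no gene made up 11.2% to 14.7% of the 8-12 h dora[B] and WT_B libraries and were left out of library sizes. The p-values rest on counting error and the spread between 2 libraries a group, and no library was a repeat of another.

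Genes were filtered with filterByExpr, scaled by TMM and tested with edgeR 4.0.16 (limma 3.58.1, R 4.3.3) by the quasi-likelihood test on the 12 dora[B] and WT_B libraries of 3 ages, with Benjamini-Hochberg adjustment over all genes and a threshold of 0.05. The dora[A] comparison and the difference between alleles came from a joint fit of 24 libraries. CPM values were computed from raw counts without TMM. An exact permutation test with 2 libraries a group cannot reach the threshold and was not used. Alternatives were DESeq2 1.42.0, RLE scaling, no filter on low counts, a replicate block, fits of the compared groups alone and leaving out each library; scaling on zygotic genes, leaving out dora[A] or WT_A libraries and leaving out 1 later age were added after seeing the data. The code was tested on simulated data.

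The members and gene lists were chosen with earlier results of these data known. Named genes were called genes with at least 5 CPM in the higher group and no overlap, up to 15 per direction by fold change, then Dora, the triggers, and up to 3 members of each list by smallest p. Most other genes chosen after their values were seen are named as such where they appear. The genes osk, vas, pgc, exu, stau, png, gnu, piwi and aub are also outside this rule and are not marked there.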

Additional observations from a re-analysis of the deposited data

Results flagged for a closer look

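Several differences between effects passed edgeR's quasi-likelihood test with Benjamini-Hochberg adjustment over all genes. Between ages, the effect of dora[B] at 12-16 h minus that at 8-12 h was -4.93 for ftz-f1 (adjusted p = 0.000155), -4.39 for Dhit (0.000124), -1.72 for Cam (0.00971) and -2.30 for grk (0.0434) on the log2 scale. The effect at 16-20 h minus that at 8-12 h was -3.81 for ftz-f1 (adjusted p = 0.00098), -4.43 for Dhit (0.000112), -2.57 for Cam (0.00098) and -3.31 for grk (0.00891). These 4 genes were higher in dora[B] at 8-12 h.

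Among the lower genes the difference ran the other way. For CG18754 it was 4.42 at 12-16 h (edgeR adjusted p = 0.0361), when the WT_B libraries had 0.830 and 0.431 CPM and the dora[B] libraries 0.406 and 0.137 CPM, so the wild-type level was itself near 0. For CtsK2 it was 4.195 at 16-20 h (edgeR adjusted p = 0.0451), with 24.1 and 29.3 CPM in WT_B and 13.9 and 26.1 CPM in dora[B].

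Between alleles, the effect of dora[B] minus that of dora[A] at 8-12 h was 3.40 for Dhit (edgeR adjusted p = 0.000201), 1.96 for faf (0.0341), 2.33 for grk (0.0496) and -2.57 for CG14273 (0.0388).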

How the results depend on the processing

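No named gene called at 8-12 h in a fit changed sign under the alternatives run. The count of 785 genes called at 8-12 h (763 higher and 22 lower) was 1420 with DESeq2 (859 and 561), 480 with RLE scaling (429 and 51), 3011 with the 4 libraries alone (2011 and 1000), 229 with scaling on zygotic genes and 1453 without the 16-20 h libraries, and 47 to 339 when 1 library was left out; the cause was not tested. DESeq2 called all 59 named genes that edgeR called, RLE scaling lost 7, scaling on zygotic genes 24, and leaving out WT_B replicate 1 46. Among maternal mRNAs cleared after 2-4 h, 32 to 207 were higher with 1 library left out and 159 with scaling on zygotic genes. Besides Dora, 97 named genes were not called in the main fit. Of these, 71 passed with the 4 libraries alone, 35 with DESeq2 and 23 without the 16-20 h libraries. The all-gene median was -0.18 with RLE scaling and 0.17 with scaling on zygotic genes, which gave 15 of 48 list medians the opposite sign.

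The 233 genes whose effect differed at 12-16 h became 453 with DESeq2, 29 with RLE scaling, 352 without a filter, 582 with the compared groups alone and 2 to 136 with 1 library left out. The 184 at 16-20 h became 446, 114, 419, 114 and 1 to 72 in the same order. The 47 between alleles became 144, 28, 24, 125 and 4 to 69. Dora's log2 fold change was -0.46 in the 4 libraries alone, where it passed the test (edgeR adjusted p = 0.0111, against 0.0877 to 0.871 otherwise).

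With a replicate block the counts were 923 at 8-12 h, 430 and 267 for the differences between ages and 16 between alleles. Libraries with the same number are not said to be paired: their deviations from the group means correlated at -0.058 at 8-12 h, 0.22 at 12-16 h and 0.19 at 16-20 h. With 2 libraries a group and 13436783 counts in the shallowest, levels under about 1 CPM rest on few counts.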

Other observations

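Some mRNAs that wild-type embryos already lose by 2-4 h were higher in dora[B] at 8-12 h all the same; they were picked after their values were seen. hoe1 had 10.4 and 10.4 CPM in WT_B and 83.2 and 83.4 CPM in dora[B] (log2 fold change 3.14, SE 0.27, edgeR adjusted p = 0.000142). gwl, the Greatwall kinase of meiosis and mitosis, had 47.6 and 39.8 CPM in WT_B and 230 and 267 CPM in dora[B]. mtrm, an inhibitor of Polo kinase in the oocyte, had 0 counts in WT_B and 1.09 and 2.53 CPM in dora[B], against 363 and 328 CPM in wild type at 0-2 h. These are 3 of the 14 higher genes of that class.

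CG31601, a zygotic gene higher in dora[B], also had 8.84 and 19.8 CPM in the dora[A] libraries beside 0.280 and 4.01 CPM in WT_A.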
